A study of Drosophila melanogaster with 14 samples.

Results

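RNA interference against Lint-1 was compared with RNA interference against EGFP in cultured Drosophila melanogaster ovarian somatic cells. The comparison uses 4 of the 14 samples of the study: 2 RNA libraries of the Lint-1 knockdown (Lint-1 KD) and 2 of the EGFP knockdown (EGFP KD), chosen by their labels and described across all genes. Ovarian somatic cells (OSCs) are a cell line of follicle-cell origin, grown here in M3 medium with serum, insulin and fly extract. All groups were treated with RNAi for 48 hours, and the labels name no mutation or transgene. EGFP is a sequence that fly cells lack, so its knockdown is the control for RNAi itself. Knockdowns of l(3)mbt (L(3)mbt KD) and of the gene for Lint-O (Lint-O KD), 2 libraries each, enter the same statistical fit and 2 direct comparisons. Whether both libraries of a group were grown as separate cultures is not stated in the labels. The p-values therefore reflect only how much these samples vary, and that variation may be technical.

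Lint-1 is a partner of the chromatin protein L(3)mbt in the LINT complex, a repressor that also holds the corepressor CoREST. In fly larvae that lack l(3)mbt, brain tissue turns on genes normally used by the germline, such as those of the egg, of meiosis and of the piRNA pathway. OSCs run a somatic branch of that pathway, in which Piwi carries small RNAs that silence transposons, while the germline branch amplifies piRNAs through Aubergine and Argonaute 3.

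The RNAi target itself was low in both Lint-1 KD libraries. Lint-1 (dm6, X, 11149323 to 11152592) had 9.81 and 12.1 CPM in Lint-1 KD, against 57.6 and 51.2 CPM in EGFP KD. CPM here are read counts scaled to a common library size (reads on genes, with TMM factors). Every Lint-1 KD value lay below every control value. The log2 fold change was -2.31 with SE 0.164 and edgeR adjusted p = 3.83e-05, which leaves 0.202 of the control level. SE is throughout the size of the log2 fold change divided by the square root of the edgeR F statistic. It is no separate estimate and can understate the uncertainty where the control has few counts. The other 2 targets of the study stayed close to the control. l(3)mbt (3R, 27266326 to 27273273) had 196.9 and 196.5 CPM in Lint-1 KD, against 187.3 and 185.7 CPM in EGFP KD (log2 fold change 0.08 with SE 0.101 and edgeR adjusted p = 0.683). The gene of Lint-O, CG2662 (X, 2698701 to 2701033), had 23.1 and 20.4 CPM in Lint-1 KD, against 19.9 and 18.0 CPM in EGFP KD (log2 fold change 0.20, edgeR adjusted p = 0.616).

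The 8 RNA libraries held between 18293791 and 20978039 reads on genes, so 3 counts, the upper limit that a count of 0 allows, equal 0.139 to 0.166 CPM. Of values between 1 and 10 counts, 81.3% were even, and counts of 1 were rarer (902 values) than counts of 2 (5201 values). Single counts were therefore not independent, and counting intervals and floors, which cover counting error only, are too narrow for low values. The difference between the 2 libraries of a group moved with gene span: the correlation across genes of the log2 ratio, library 1 over library 2, with log2 span was 0.2 in Lint-1 KD and -0.412 in EGFP KD. Genes are not independent replicates, and the part of this difference in single results was tested only by removing the trend.

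Most genes called in Lint-1 KD were higher. Of 8244 genes tested, 693 were called higher (8.41%) and 103 lower (1.25%) at an edgeR adjusted p under 0.05, which is 9.66% in either direction. At least 2-fold, 525 genes were higher (6.37%) and 27 lower (0.328%). The median log2 fold change was 1.94 among the higher genes, or 1.90 with genes that had no control count put at their lower bound, and -0.69 among the lower genes. Over all tested genes the median was -0.01. The libraries of the 2 groups did not overlap in any of the 796 called genes, and they did not overlap in 56.3% of all tested genes. For a called gene, lack of overlap therefore adds nothing to the call. The number of lower genes rested on all 4 libraries: it was 40 without Lint-1 KD replicate 1, 11 without Lint-1 KD replicate 2, 36 without EGFP KD replicate 1 and 16 without EGFP KD replicate 2. The number of higher genes was 439, 414, 445 and 422 in the same order.

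**Figure D1:**
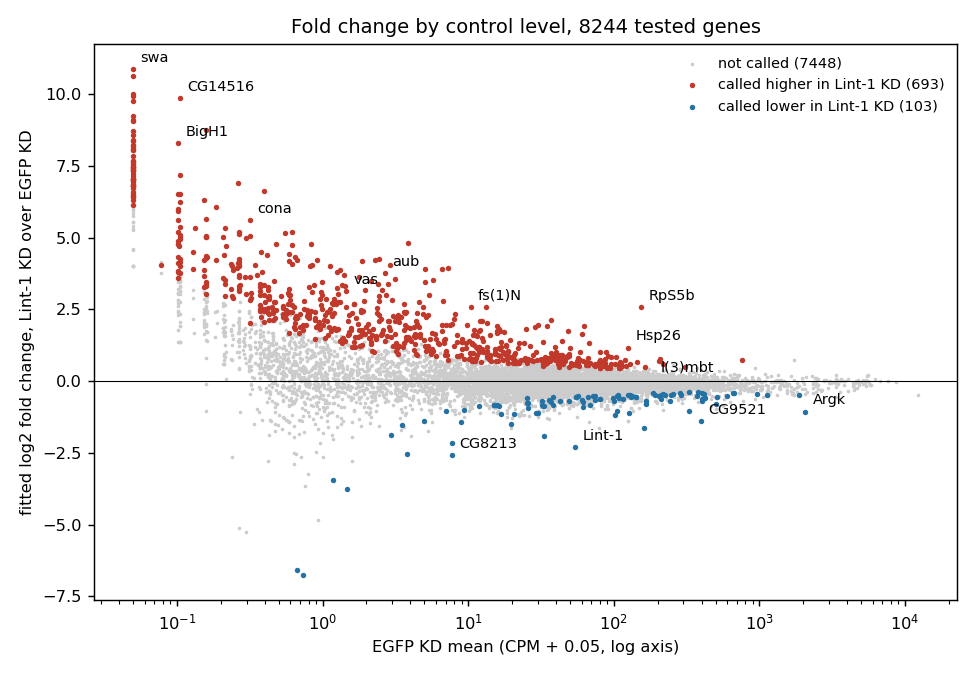
Each point is 1 of 8244 tested genes, with the EGFP KD mean in CPM plus 0.05 on a log axis and the fitted log2 fold change of Lint-1 KD over EGFP KD on the vertical axis; red points were called higher (693), blue points lower (103) and grey points were not called. The tallest red points sit at the left, where the control has few or no counts and the fitted value depends on the prior count, and most blue points sit at the right.

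Called genes covered the whole range of control levels. In genes under 1 CPM in EGFP KD, 258 of 1023 were higher (25.2%) and 2 were lower, and of the 82 of these with no control count 51 were higher (62.2%). These 2 shares are partly fixed by the low-count filter, since 839 of the 1023 genes did not reach its minimum of 0.522 CPM in both EGFP KD libraries and were tested only because other libraries did, as were 225 of the 258 higher ones. Over all tested genes this held for 845, and for 226 of the 693 higher ones. The classes are also set by the control level, which is the denominator of the fold change. In the next class, 6 of 764 genes were of that kind. From 1 to under 5 CPM, 158 of 764 genes were higher (20.7%), and from 5 to under 20 CPM 133 of 1338 (9.94%). From 20 to under 100 CPM the counts were 124 higher (3.75%) and 35 lower (1.06%) of 3309 genes. At 100 CPM or more the balance turned, with 20 higher (1.1%) and 47 lower (2.6%) of 1810 genes. The called genes were spread over the genome. The share called higher was 8.58% on 2L, 7.68% on 2R, 8.97% on 3L, 8.35% on 3R and 8.43% on X, and on the small chromosome 4 it was 13.8%, or 11 of 80 genes.

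**Figure D2:**
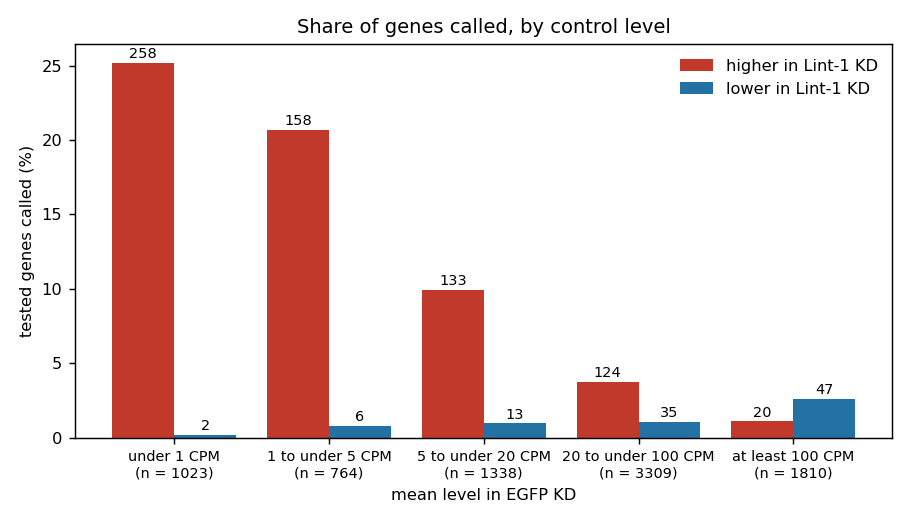
Bars give the percentage of tested genes called higher (red) or lower (blue) in Lint-1 KD, in 5 classes of mean EGFP KD level, with the number of called genes above each bar and the number tested below. The first class is filled mostly by genes that passed the low-count filter through a knockdown (839 of 1023), so its share is no measure of how often silent genes changed; in the top class 1.1% were called higher and 2.6% lower.

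The largest rises were in genes that were silent in control cells, several of them used by the egg. swa (X, 6363418 to 6365708), whose product Swallow places bicoid RNA in the oocyte, had 11.9 and 12.1 CPM in Lint-1 KD and no count in either EGFP KD library, which makes it at least 74.8-fold higher over a floor of 3 counts per library (edgeR adjusted p = 5.72e-05). hebe (2R, 9828104 to 9836642) had 10.3 and 10.4 CPM in Lint-1 KD and no count in EGFP KD, at least 64.2-fold higher (edgeR adjusted p = 4.33e-05). yl (X, 14193214 to 14199958), which encodes the oocyte receptor for yolk protein, had 7.86 and 4.82 CPM in Lint-1 KD and no count in EGFP KD, at least 39.3-fold higher (edgeR adjusted p = 0.000785). In these 3 genes both knockdown libraries were well above the floor and both control libraries were at 0. CG11052 and Arpc3B, a paralog of an Arp2/3 complex subunit, were likewise at 0 in EGFP KD and at least 40.9-fold and 34.9-fold higher in Lint-1 KD. Genes with no control count were tested only because a knockdown passed the low-count filter, and a ranking by fold change favours them. Their place at the top thus follows in part from the selection.

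Other strong rises started from a trace of control reads. These genes, too, stayed under the low-count filter's minimum of 0.522 CPM in both EGFP KD libraries. They were tested only because a knockdown passed the filter, so their rank follows in part from that selection. BigH1 (3R, 14663450 to 14664822), the linker histone of the germline and early embryo, had 19.0 CPM in both Lint-1 KD libraries, against 0 and 0.104 CPM in EGFP KD. The ratio of its counts was 354 with a 95% counting interval of 97.6 to 2928. CG14516 (3R, 29138662 to 29145787; now named superdeath) had 54.2 and 58.5 CPM in Lint-1 KD, against 0.111 and 0 CPM in EGFP KD, a ratio of 1048 with an interval of 289.6 to 8655. The 2 control counts behind each of these ratios leave their size uncertain by more than an order of magnitude. CG11674 had 51.8 and 47.0 CPM in Lint-1 KD, against 0.111 and 0.104 CPM in EGFP KD (log2 fold change 8.76, SE 0.34). CG34355 had 23.5 and 29.2 CPM in Lint-1 KD, against 0.111 and 0.312 CPM in EGFP KD (log2 fold change 6.90, SE 0.463). Sas had 37.6 and 31.7 CPM in Lint-1 KD, against 0.166 and 0.52 CPM in EGFP KD (log2 fold change 6.61, SE 0.344). CG11674, CG34355 and Sas had only 4, 8 and 13 counts over both EGFP KD libraries. Their SE therefore does not show how precisely these fold changes are known. The rule for the largest rises also took in CG9427, at a ratio of 161 (interval 44.1 to 1332), and nos, described with the germline genes.

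Of 12 factors of germline piRNA amplification, all of them tested, 5 rose and none fell, beside 8.41% of all genes called higher. aub (2L, 10997819 to 11001476), a PIWI protein of the germline amplification loop, had 39.8 and 32.7 CPM in Lint-1 KD, against 2.27 and 3.02 CPM in EGFP KD (log2 fold change 3.77 with SE 0.198 and edgeR adjusted p = 1.24e-05). vas (2L, 15061656 to 15074311), which encodes the germ-granule RNA helicase Vasa, had 12.1 and 12.5 CPM in Lint-1 KD, against 1.55 and 1.25 CPM in EGFP KD (log2 fold change 3.14 with SE 0.212 and edgeR adjusted p = 3.03e-05). For both genes the lower knockdown library was several times the higher control library. AGO3, the partner of Aub in the loop, had 5.998 and 7.12 CPM in Lint-1 KD, against 2.05 and 2.24 CPM in EGFP KD (log2 fold change 1.61 with SE 0.268 and edgeR adjusted p = 0.00495). tej, a Tudor-domain protein of the germ granule, had 1.77 and 1.47 CPM in Lint-1 KD, against 0 and 0.104 CPM in EGFP KD, which is 30.3 times the control count (counting interval 8.06 to 255, edgeR adjusted p = 0.00722). qin, which encodes a Tudor-domain protein that keeps Aub and AGO3 pairing in order, varied more between replicates. It had 9.996 and 5.81 CPM in Lint-1 KD, against 2.22 and 2.81 CPM in EGFP KD (log2 fold change 1.65 with SE 0.415 and edgeR adjusted p = 0.0375), and its adjusted p was 0.198 without Lint-1 KD replicate 1, 0.184 without EGFP KD replicate 1 and 0.103 without EGFP KD replicate 2.

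The other 7 amplification factors did not pass the test. Most of them were expressed in the control cells already. spn-E, a helicase of the same granules, had 203.5 and 157.6 CPM in Lint-1 KD, against 165.4 and 204.3 CPM in EGFP KD, so the groups overlapped. krimp, CG8920 (tapas), tud, squ and BoYb had log2 fold changes between -0.85 and 0.40. CG9925 was at 0.186 and 0.314 CPM in Lint-1 KD and had no count in EGFP KD (edgeR adjusted p = 0.0755). tej and CG9925 passed the low-count filter only through a knockdown.

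Of 20 piRNA factors used by somatic cells none was called by edgeR or DESeq2, beside 9.66% of all tested genes, a share at which a list of this size holds few calls. An unadjusted p under 0.05 was found for 2 of the 20, and for 1964 of the 8244 tested genes. piwi had 661 and 538 CPM in Lint-1 KD, against 581 and 691 CPM in EGFP KD, with overlapping groups (log2 fold change -0.09). fs(1)Yb, which encodes the core protein of the somatic Yb body, had 245 and 272 CPM in Lint-1 KD, against 236 and 221 CPM in EGFP KD (log2 fold change 0.18). The median of this list was 0.00. Of 8 factors of dual-strand piRNA clusters, the germline source loci, 1 rose, beside 8.41% of all tested genes called higher. This gene, CG13741 (Boot), had 2.28 and 1.78 CPM in Lint-1 KD, against 0.333 and 0.208 CPM in EGFP KD (log2 fold change 2.89 with SE 0.494 and edgeR adjusted p = 0.00582). CG13741 and TfIIA-S-2, 2 of the 8, passed the low-count filter only through a knockdown. rhi, which encodes the chromatin reader Rhino, had 3.95 and 2.88 CPM in Lint-1 KD, against 2.16 and 3.33 CPM in EGFP KD, again overlapping.

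**Figure D3:**
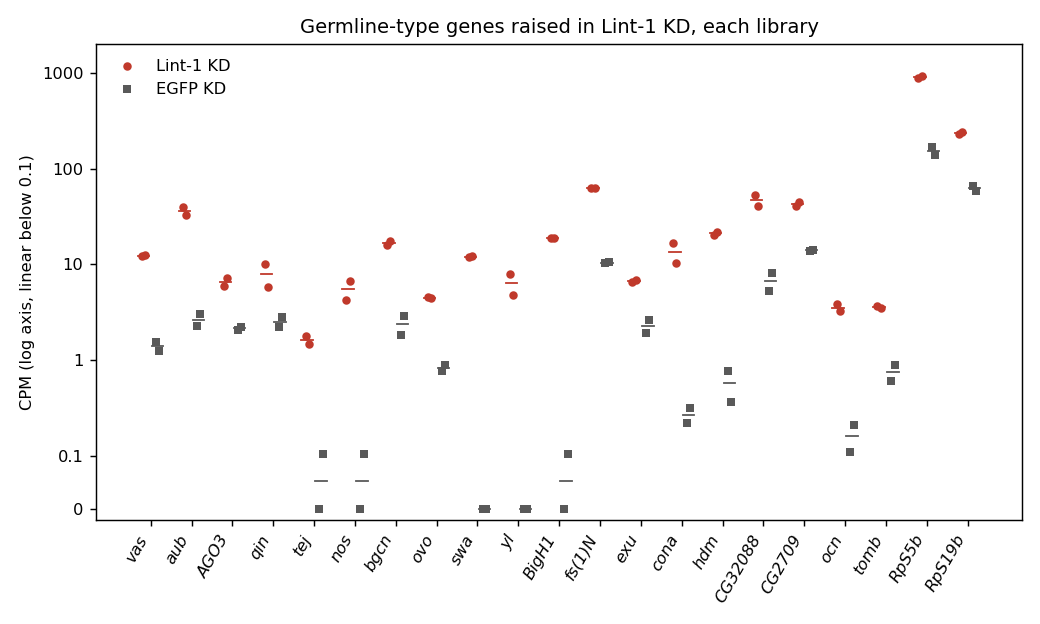
Points are single libraries and short lines the mean of 2, for 21 germline-type genes in Lint-1 KD (red circles, left) and EGFP KD (grey squares, right), in CPM on a log axis that is linear below 0.1. The 2 groups do not overlap in any of the genes plotted, which were picked from called genes; swa and yl are at 0 in both EGFP KD libraries.

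Of 12 tested germline stem cell and identity genes 4 rose and none fell, beside 8.41% of all tested genes called higher and 1.25% lower, and 3 of the 12 (nos, orb and CG32364) were tested only because a knockdown passed the filter. nos, which encodes the translational repressor Nanos, had 4.28 and 6.76 CPM in Lint-1 KD, against 0 and 0.104 CPM in EGFP KD, which is 101.4 times the control count (counting interval 27.8 to 843, edgeR adjusted p = 0.000291). bgcn, whose product works with Bam in germ-cell differentiation, had 15.9 and 17.4 CPM in Lint-1 KD, against 1.83 and 2.91 CPM in EGFP KD (log2 fold change 2.80 with SE 0.27 and edgeR adjusted p = 0.000215). ovo, which encodes a transcription factor of the female germline, had 4.51 and 4.45 CPM in Lint-1 KD, against 0.776 and 0.884 CPM in EGFP KD (log2 fold change 2.42, SE 0.378). In these genes each knockdown library exceeded both controls, as in every gene called higher. Rbp9 rose with a log2 fold change of 1.59 (edgeR adjusted p = 0.00844), and its adjusted p was 0.064 without EGFP KD replicate 1 and 0.0502 without Lint-1 KD replicate 2. bam, the differentiation factor itself, had 16.97 and 14.8 CPM in Lint-1 KD, against 7.87 and 10.7 CPM in EGFP KD, and did not pass the test (edgeR adjusted p = 0.0854).

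Of 16 maternal egg and early embryo genes 12 were tested, 8 of them were called higher and none lower, beside 8.41% and 1.25% of all tested genes. The filter shapes this count, because swa, yl, BigH1, gnu and Pxt did not reach its minimum in both control libraries and were tested through a knockdown, and 4 members that stayed low were not tested. Beside swa, yl and BigH1, fs(1)N (X, 1322513 to 1329438), which contributes to the eggshell and to terminal patterning, had 62.1 and 62.2 CPM in Lint-1 KD, against 10.2 and 10.5 CPM in EGFP KD (log2 fold change 2.59 with SE 0.143 and edgeR adjusted p = 1.43e-05). alphaTub67C, the maternal alpha-tubulin, had 3.39 and 5.13 CPM in Lint-1 KD, against 0.942 and 0.988 CPM in EGFP KD (log2 fold change 2.13, SE 0.367). The replicates within each group were close for fs(1)N and wider for alphaTub67C, and neither gene overlapped between groups, as no called gene did. png and gnu, which belong to the kinase complex of the first embryonic divisions, rose with log2 fold changes of 1.63 and 3.27, and exu, which acts on bicoid RNA, with 1.55. gnu, at 0.93 and 1.26 CPM in Lint-1 KD, against 0 and 0.208 CPM in EGFP KD, lost its call without EGFP KD replicate 1 (edgeR adjusted p = 0.0873), without Lint-1 KD replicate 1 (0.0583) and without Lint-1 KD replicate 2 (0.118). bcd, cort, stau and Pxt did not pass the test.

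Of 22 tested meiosis genes 7 rose and none fell, beside 8.41% of all tested genes called higher and 1.25% lower; cona, hdm, mei-P22 and mei-218 passed the filter only through a knockdown. cona (3R, 18385828 to 18386887), which encodes a central component of the synaptonemal complex, had 16.5 and 10.2 CPM in Lint-1 KD, against 0.222 and 0.312 CPM in EGFP KD (log2 fold change 5.61 with SE 0.391 and edgeR adjusted p = 3.66e-05). hdm (X, 7918517 to 7920131), a meiotic crossover gene, had 20.4 and 21.8 CPM in Lint-1 KD, against 0.776 and 0.364 CPM in EGFP KD (log2 fold change 5.21 with SE 0.308 and edgeR adjusted p = 2.04e-05). CG32088 (sunn), needed for meiotic cohesion, had 52.6 and 40.3 CPM in Lint-1 KD, against 5.21 and 8.11 CPM in EGFP KD (log2 fold change 2.80, SE 0.289). Each of the 3 had its lower knockdown library above its higher control library, as every gene called higher did. The pro-crossover RING proteins CG12200 (narya) and CG2709 (vilya), the synaptonemal complex protein CG8316 (corolla) and the kinesin nod rose with log2 fold changes of 2.31, 1.62, 1.26 and 0.81. The 15 members that did not pass included c(3)G, the transverse filament protein, at 4.56 and 2.41 CPM in Lint-1 KD, against 1.39 and 1.77 CPM in EGFP KD (edgeR adjusted p = 0.203). The repair genes okr and spn-A had log2 fold changes of -0.25 and 0.08.

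Testis genes had 3 of 8 tested members higher and none lower, beside the same shares of all genes. 9 members of the list were below the filter, and 3 of the 8, ocn among them, passed it only through a knockdown. ocn had 3.81 and 3.25 CPM in Lint-1 KD, against 0.111 and 0.208 CPM in EGFP KD (log2 fold change 4.40 with SE 0.427 and edgeR adjusted p = 0.000225). tomb, a subunit of the testis meiotic arrest complex, had 3.63 and 3.46 CPM in Lint-1 KD, against 0.61 and 0.884 CPM in EGFP KD (log2 fold change 2.23, SE 0.304). Both stood clear of the controls, as every called gene did. mia, a testis-specific TAF, rose with a log2 fold change of 1.15, and its edgeR adjusted p was 0.0514 without EGFP KD replicate 1. Among 35 tested proteasome genes a single gene was higher, beside 8.41% of all tested genes. It was Prosbeta2R2, a paralog of a proteasome subunit, with 40.5 and 41.6 CPM in Lint-1 KD, against 8.76 and 7.38 CPM in EGFP KD (log2 fold change 2.35, SE 0.224).

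Ribosomal protein paralogs split by gene. RpS5b (3R, 14900432 to 14901563), the paralog used in the female germline, had 891 and 934 CPM in Lint-1 KD, against 168 and 140 CPM in EGFP KD (log2 fold change 2.57 with SE 0.17 and edgeR adjusted p = 2.9e-05). RpS19b (3R, 23932729 to 23933530), another germline paralog, had 231 and 238 CPM in Lint-1 KD, against 66.2 and 58.0 CPM in EGFP KD (log2 fold change 1.92 with SE 0.154 and edgeR adjusted p = 7.25e-05). These rises were well beyond the replicate spread, although how reads were shared with the similar copies RpS5a and RpS19a is uncertain. RpS10a had a log2 fold change of 0.79, and its edgeR adjusted p, 0.0439 with all libraries, was 0.314 without EGFP KD replicate 2, 0.142 without Lint-1 KD replicate 1 and 0.233 without Lint-1 KD replicate 2. Over all 87 tested ribosomal protein genes these 3 were higher, 1 was lower and the median log2 fold change was -0.06. Beside this, 8.41% of all tested genes were called higher and 1.25% lower.

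Beside these germline gene groups stands the summed level of 6 germline cell markers, vas, nos, bam, osk, orb and otu. Their summed level was 34.2 and 35.2 CPM in Lint-1 KD, against 9.64 and 12.4 CPM in EGFP KD, and 2 of the 6, vas and nos, were called higher. otu had no count in any of the 4 libraries, and osk had at most 2 counts per library. In these bulk samples more cells of a type and more RNA per cell cannot be told apart, and the part of the markers in the results was not tested. The 4 hemocyte markers summed to 26.4 and 33.7 CPM in Lint-1 KD, against 18.7 and 24.3 CPM in EGFP KD. Nearly all of this came from srp and Pxn, as Hml and NimC1 had at most 4 counts per library. The 4 neuronal markers summed to 22.3 and 27.0 CPM in Lint-1 KD, against 17.8 and 23.8 CPM in EGFP KD, which overlapped. Nearly all of that was elav, as nSyb, brp and Syt1 had at most 6 counts per library. Of the markers of hemocytes, neurons, glia, muscle and fat body, only srp, Pxn, elav, repo, Mhc and Mef2 were tested. None of these was called, beside 9.66% of all tested genes. The others, both fat body markers among them, were below the low-count filter and could not be called. Act88F (muscle) and Fbp1 (fat body) had no count in any of the 4 libraries.

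The defining markers of follicle cells were present in both groups. The 5 ovarian somatic markers tj, Fas3, zfh1, fs(1)Yb and eya summed to 692 and 619 CPM in Lint-1 KD, against 595 and 742 CPM in EGFP KD, and the groups overlapped. tj, which encodes the transcription factor Traffic jam, had 265 and 197 CPM in Lint-1 KD, against 216 and 300 CPM in EGFP KD. Of all tested genes 8.41% were called higher and 1.25% lower. Near these shares, 1 of 13 tested follicle cell genes rose and none fell. That gene was eya, which encodes the transcription cofactor Eyes absent, with 44.6 and 58.4 CPM in Lint-1 KD, against 19.5 and 18.9 CPM in EGFP KD (log2 fold change 1.42 with SE 0.172 and edgeR adjusted p = 0.000846). The epithelial polarity gene crb also rose, with 22.8 and 14.4 CPM in Lint-1 KD, against 3.77 and 4.89 CPM in EGFP KD (log2 fold change 2.10, SE 0.346), as the only called one of 13 tested Hippo pathway genes and targets. grk, which encodes the EGFR ligand Gurken that the oocyte normally sends to follicle cells, had 11.3 and 9.64 CPM in Lint-1 KD, against 2.16 and 3.48 CPM in EGFP KD (log2 fold change 1.88, SE 0.271), while the other 11 tested EGFR pathway genes were not called.

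Heat shock genes had 6 of 12 tested members higher and none lower, beside 8.41% and 1.25% of all tested genes, and the number higher was 4 to 6 with 1 library left out. Of the 6, Hsp67Bc passed the filter only through a knockdown. Hsp26 (3L, 9376418 to 9377427), a small chaperone, had 282 and 279 CPM in Lint-1 KD, against 131 and 120 CPM in EGFP KD (log2 fold change 1.16 with SE 0.166 and edgeR adjusted p = 0.00211). Hsp68, of the Hsp70 family, had 83.5 and 85.9 CPM in Lint-1 KD, against 31.6 and 33.9 CPM in EGFP KD (log2 fold change 1.37 with SE 0.143 and edgeR adjusted p = 0.000346). Hsp23, Hsp27, Hsp67Ba and Hsp67Bc, which lie beside Hsp26 on 3L, rose with log2 fold changes of 1.31, 0.60, 0.87 and 3.09. The groups overlapped in none of them, which held for every called gene. Hsf, the heat shock transcription factor, and Hsp83 did not pass the test, with log2 fold changes of 0.30 and 0.09.

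Of 8 tested genes of the p53 response and cell death, p53 and Corp rose, beside 8.41% of all tested genes called higher. p53 had 70.2 and 74.3 CPM in Lint-1 KD, against 36.9 and 37.2 CPM in EGFP KD (log2 fold change 0.96 with SE 0.129 and edgeR adjusted p = 0.00148). Corp, which encodes a negative regulator of p53, had 6.23 and 4.50 CPM in Lint-1 KD, against 0.776 and 1.09 CPM in EGFP KD (log2 fold change 2.51, SE 0.348). Both genes stood apart from the controls, as every called gene did, while the caspase genes Ice and Nc had log2 fold changes of 0.12 and 0.41 and were not called. Innate immune genes had 4 of 13 tested members higher and none lower, beside 8.41% and 1.25% of all tested genes, and 5 of the 13, cGlr1 and Drsl5 among them, passed the filter only through a knockdown. CG12970 (cGlr1), a cGAS-like nucleic acid sensor, had 4.56 and 3.25 CPM in Lint-1 KD and no count in EGFP KD, at least 24.2-fold higher. CG1667 (Sting), the receptor downstream of such sensors, had 46.5 and 39.3 CPM in Lint-1 KD, against 17.4 and 16.2 CPM in EGFP KD (log2 fold change 1.36 with SE 0.198 and edgeR adjusted p = 0.00236). The antifungal-type peptide gene Drsl5 was at least 10.5-fold higher over no control count. The call of Vago, at a log2 fold change of 0.69 (edgeR adjusted p = 0.0313), ended with any 1 of the 4 libraries left out, at adjusted p-values of 0.0616 to 0.208. Rel, which encodes the transcription factor Relish, had a log2 fold change of 0.00.

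**Figure D4:**
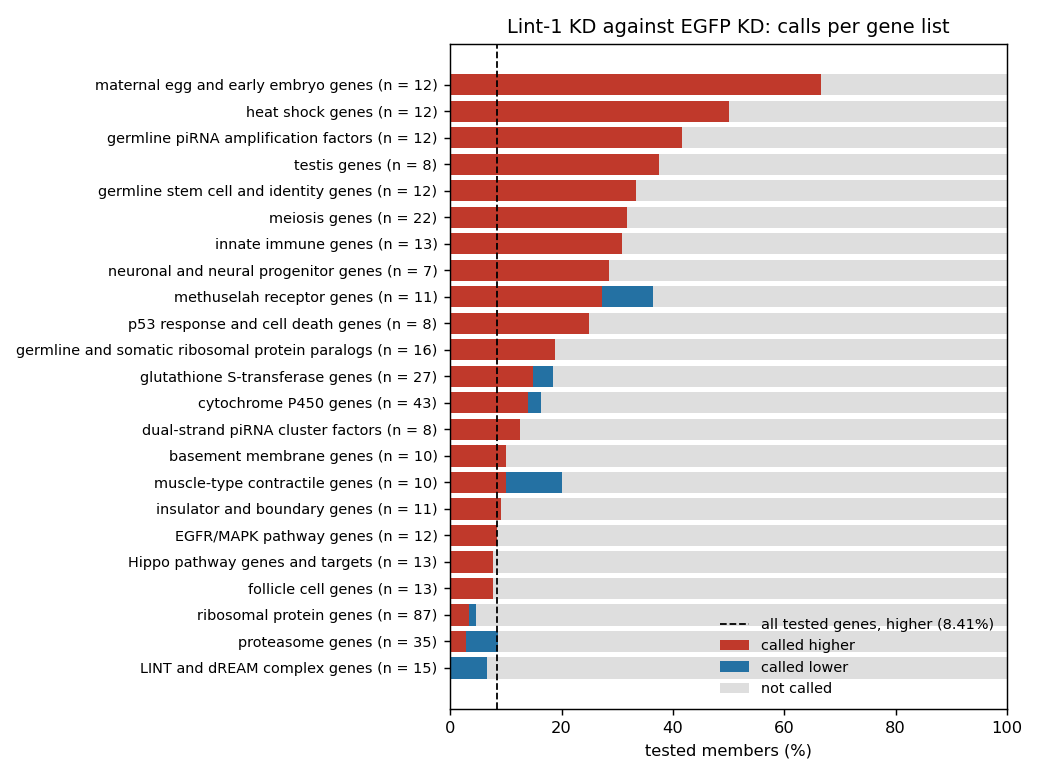
Bars split the tested members of each gene list with at least 5 tested members and at least 1 call into called higher (red), called lower (blue) and not called (grey), in percent of tested members. The dashed line marks the 8.41% of all tested genes called higher. The order of the bars depends in part on the low-count filter: 5 of the 12 tested maternal genes and 3 of the 12 tested heat shock genes, for example, did not reach its minimum in both EGFP KD libraries.

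Enzyme families held calls in both directions, with 1 fall in each, beside 8.41% of all tested genes called higher and 1.25% lower. Of 43 tested cytochrome P450 genes 6 rose and 1 fell, and of 27 tested glutathione S-transferase genes 4 rose and 1 fell. Of the 43 P450 genes, 8 passed the low-count filter only through a knockdown. Among these 8 were 2 of the 6 higher ones, Cyp301a1 and Cyp305a1. The P450 genes called higher were 3 without Lint-1 KD replicate 1, 2 without Lint-1 KD replicate 2, 5 without EGFP KD replicate 1 and 2 without EGFP KD replicate 2, and the transferase genes 1, 2, 1 and 2 in the same order. GstO3 had 155 and 167 CPM in Lint-1 KD, against 40.0 and 34.1 CPM in EGFP KD (log2 fold change 2.12 with SE 0.131 and edgeR adjusted p = 2.33e-05). Cyp9f2 had 14.4 and 15.5 CPM in Lint-1 KD, against 5.32 and 5.51 CPM in EGFP KD (log2 fold change 1.46, SE 0.182). Both were clear of their controls, as every called gene was. GstD2 was lower, with 13.6 and 14.1 CPM in Lint-1 KD, against 28.8 and 31.3 CPM in EGFP KD (log2 fold change -1.12, SE 0.192). Of 11 tested methuselah receptor genes mthl14, mthl15 and mthl7 rose and mthl9 fell. mthl2 and mthl7 passed the low-count filter only through a knockdown. mthl7, at 2.00 and 1.47 CPM in Lint-1 KD, against 0.665 and 0.416 CPM in EGFP KD, lost its call with any 1 library left out.

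KFase (2L, 6487342 to 6488756), which encodes the kynurenine formamidase of tryptophan breakdown, had 41.6 and 42.3 CPM in Lint-1 KD, against 2.49 and 1.98 CPM in EGFP KD (log2 fold change 4.23 with SE 0.237 and edgeR adjusted p = 1.52e-05). Mlc2, a muscle-type myosin light chain, had 21.3 and 24.6 CPM in Lint-1 KD, against 3.82 and 4.99 CPM in EGFP KD (log2 fold change 2.37, SE 0.234). In both genes the knockdown libraries were close together and far above the controls. HmgZ, a chromatin protein with an HMG box, was among the called genes with the highest control CPM, at 322 and 391 CPM in Lint-1 KD, against 210 and 207 CPM in EGFP KD (log2 fold change 0.77 with SE 0.137 and edgeR adjusted p = 0.00708); its adjusted p was 0.0609 without Lint-1 KD replicate 2 and 0.0545 without EGFP KD replicate 2. The other 5 of the 6 higher genes with the highest control CPM, lost their call with any 1 of the 4 libraries left out (CR40469, Mal-A5, Vago and Spn88Ea, edgeR adjusted p-values of 0.057 to 0.257) or with any but Lint-1 KD replicate 1 left out (Cg25C, 0.066 to 0.101).

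Genes that fell were fewer and changed less. CG8213 (flz; 2R, 8969346 to 8985900), a serine protease gene, had 1.49 and 1.05 CPM in Lint-1 KD, against 6.60 and 8.68 CPM in EGFP KD (log2 fold change -2.58 with SE 0.416 and edgeR adjusted p = 0.00411). Cyp6d5 (3R, 14029228 to 14031483), a cytochrome P450, had 62.9 and 40.4 CPM in Lint-1 KD, against 162 and 158 CPM in EGFP KD (log2 fold change -1.63 with SE 0.189 and edgeR adjusted p = 0.000646). CG9521 (X, 14851005 to 14853269), a GMC oxidoreductase, had 170 and 131 CPM in Lint-1 KD, against 432 and 365 CPM in EGFP KD (log2 fold change -1.41 with SE 0.182 and edgeR adjusted p = 0.00125). In all 3 the higher knockdown library stayed below the lower control library, as in every gene called lower. mthl9 (3L, 329822 to 332309), a G-protein coupled receptor of the methuselah family, had 46.9 and 43.7 CPM in Lint-1 KD, against 100.9 and 104.1 CPM in EGFP KD (log2 fold change -1.18 with SE 0.139 and edgeR adjusted p = 0.000713). Argk (3L, 9048781 to 9066027), the arginine kinase that buffers ATP, had 1013 and 962 CPM in Lint-1 KD, against 2175 and 1949 CPM in EGFP KD (log2 fold change -1.06 with SE 0.146 and edgeR adjusted p = 0.00175). These 5 genes kept their call with any 1 library left out.

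Several other large falls did not keep it. CG14608 (thw), at 13.0 and 4.56 CPM in Lint-1 KD, against 26.7 and 39.3 CPM in EGFP KD, had a log2 fold change of -1.90 and an edgeR adjusted p of 0.0206, which became 0.0921 without EGFP KD replicate 2. Act57B, an actin of muscle type, fell to 14.8 and 11.99 CPM in Lint-1 KD, against 25.5 and 33.2 CPM in EGFP KD, and its adjusted p of 0.0102 became 0.0746 without EGFP KD replicate 2 and 0.101 without Lint-1 KD replicate 2. Idgf1 (log2 fold change -1.42) reached an adjusted p of 0.0684 without Lint-1 KD replicate 2, and CG10365 (-1.14) 0.0542 without Lint-1 KD replicate 1. CG32113 (Vps13D; log2 fold change -2.17, adjusted p = 0.0313) lost its call without Lint-1 KD replicate 1 (0.0966), Lint-1 KD replicate 2 (0.217) or EGFP KD replicate 2 (0.182). cbt (log2 fold change -1.50, adjusted p = 0.0493) lost it without Lint-1 KD replicate 2 (0.284), EGFP KD replicate 1 (0.0913) or EGFP KD replicate 2 (0.2). CG10440 (twz) was lower at 7.07 and 7.91 CPM in Lint-1 KD, against 15.9 and 17.4 CPM in EGFP KD, and kept its call. Of the 6 lower genes with the highest control CPM, 5 (RpL35, Mtpalpha, Gdh, CG1703 and eIF-2beta) lost their call with any 1 of the 4 libraries left out (edgeR adjusted p-values of 0.0917 to 0.315), and Argk did not.

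In the remaining lists few genes passed, beside 8.41% of all tested genes called higher and 1.25% lower. Appl and mira rose among 7 tested neuronal genes, Cg25C (a collagen IV chain) among 10 basement membrane genes and Ibf2 among 11 insulator genes. With 1 library left out in turn, the calls of Appl and Cg25C held only when that library was Lint-1 KD replicate 1, and those of mira and Ibf2 held in no case. Mlc2 rose and Act57B fell among 10 tested muscle-type genes, CG9521 fell among 4 tested GMC oxidoreductase genes, and Prosbeta3 and Rpn5 fell among the proteasome genes, both losing the call with any 1 library left out (edgeR adjusted p-values of 0.0895 to 0.301). Beside Lint-1 itself, none of the 14 other tested genes of the LINT and dREAM complexes was called, with a median of 0.05 over the list. The 13 lists without an edgeR call hold 143 distinct tested genes. DESeq2 called 4 of these genes, and 18 had an unadjusted p under 0.05. Over all 8244 tested genes, edgeR called 9.66%, and 1964 had an unadjusted p under 0.05. The 13 lists were grouped for having no edgeR call, so that absence is no result about them. These lists were somatic piRNA factors, hemocyte genes, fat body genes, replication and cell cycle, ecdysone response, JAK/STAT, small RNA factors of the siRNA and miRNA pathways, Polycomb and heterochromatin, sex determination and dosage, glycolysis, Notch, Dpp/BMP and Wnt. The 23 replication and cell cycle genes lay between -0.31 and 0.30 on the log2 scale.

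Set directly against L(3)mbt KD, Lint-1 KD differed in 6 genes (0.0728% of those tested), 3 higher (0.0364%) and 3 lower (0.0364%), and 513 genes had an unadjusted p under 0.05. Lint-1 and l(3)mbt, the targets, were 2 of the 6. Lint-1 had 9.81 and 12.1 CPM in Lint-1 KD, against 72.2 and 85.9 CPM in L(3)mbt KD (log2 fold change -2.85). l(3)mbt had 196.9 and 196.5 CPM in Lint-1 KD, against 103 and 95.9 CPM in L(3)mbt KD (log2 fold change 0.99, edgeR adjusted p = 0.00757). In EGFP KD l(3)mbt had 187.3 and 185.7 CPM and Lint-1 57.6 and 51.2 CPM. L(3)mbt KD thus left a larger part of its target RNA than Lint-1 KD did, and the part of this in the direct comparison was not tested. The strongest differences beyond the targets were in 2 germline genes. vas had 12.1 and 12.5 CPM in Lint-1 KD, against 122 and 125 CPM in L(3)mbt KD (log2 fold change -3.32 with SE 0.175 and edgeR adjusted p = 0.000113). cona had 16.5 and 10.2 CPM in Lint-1 KD, against 118 and 93.0 CPM in L(3)mbt KD (log2 fold change -2.98 with SE 0.248 and edgeR adjusted p = 0.00205). Both had been called higher than in EGFP KD, so they lay between the other 2 groups. These 2 calls held with any 1 library left out.

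Of the methuselah family, mth and mthl9 were higher in Lint-1 KD than in L(3)mbt KD. mth (3L, 343378 to 346957) had 9.53 and 9.79 CPM in Lint-1 KD, against 2.23 and 1.80 CPM in L(3)mbt KD (log2 fold change 2.26 with SE 0.246 and edgeR adjusted p = 0.00978), and 9.14 and 7.85 CPM in EGFP KD. mthl9 had 46.9 and 43.7 CPM in Lint-1 KD, against 15.2 and 18.4 CPM in L(3)mbt KD (log2 fold change 1.43 with SE 0.143 and edgeR adjusted p = 0.00718). So mthl9 was lower than in EGFP KD but less so than in L(3)mbt KD, and mth was near its control level. The call of mth ended without Lint-1 KD replicate 1 (edgeR adjusted p = 0.108), without Lint-1 KD replicate 2 (0.13) and without L(3)mbt KD replicate 2 (0.0882). That of mthl9 ended without Lint-1 KD replicate 1 (0.0762), and that of l(3)mbt without Lint-1 KD replicate 1 (0.128), Lint-1 KD replicate 2 (0.13) and L(3)mbt KD replicate 2 (0.0758).

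Set directly against Lint-O KD, 97 genes differed (1.18%): 75 were higher in Lint-1 KD (0.91%) and 22 lower (0.267%). Of the 75, 65 were also higher in Lint-1 KD than in EGFP KD. Of the 22, 4 were higher, 7 lower and 11 not called against EGFP KD. Beside this, 8.41% of all tested genes were called higher and 1.25% lower against EGFP KD. Both comparisons use the same 2 Lint-1 KD libraries, so these overlaps are not independent agreement. The number higher was 3 to 18 and the number lower 2 to 7 with 1 library left out in turn.

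The genes higher than in Lint-O KD included the egg genes swa and yl, which had no control count. swa had 11.9 and 12.1 CPM in Lint-1 KD, against 0.734 and 1.52 CPM in Lint-O KD (log2 fold change 3.41 with SE 0.338 and edgeR adjusted p = 0.00497). hebe had 10.3 and 10.4 CPM in Lint-1 KD, against 0.629 and 0.315 CPM in Lint-O KD (log2 fold change 4.44 with SE 0.351 and edgeR adjusted p = 0.00148). yl had 7.86 and 4.82 CPM in Lint-1 KD, against 0.105 and 0 CPM in Lint-O KD, which is 123 times the Lint-O KD count (counting interval 33.6 to 1018). KFase had 41.6 and 42.3 CPM in Lint-1 KD, against 4.40 and 5.24 CPM in Lint-O KD (log2 fold change 3.12 with SE 0.219 and edgeR adjusted p = 0.000442). In each of these the higher Lint-O KD library was far below the lower Lint-1 KD library. CG14516, dao and nos were also higher, with log2 fold changes of 2.98, 4.09 and 2.54. The target gene CG2662 had 23.1 and 20.4 CPM in Lint-1 KD, against 1.15 and 1.99 CPM in Lint-O KD (log2 fold change 3.78). The calls of hebe, KFase and CG2662 held with any 1 library left out. Without Lint-O KD replicate 1 the adjusted p was 0.0702 for swa and 0.065 for CG14516, and yl lost its call without any 1 of 3 libraries (0.0641 to 0.121). dao and nos lost theirs without any 1 of the 4 (0.077 to 0.324).

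vas and cona were lower in Lint-1 KD than in Lint-O KD as well. vas had 12.1 and 12.5 CPM in Lint-1 KD, against 54.4 and 71.9 CPM in Lint-O KD (log2 fold change -2.36 with SE 0.17 and edgeR adjusted p = 0.000442). cona had 16.5 and 10.2 CPM in Lint-1 KD, against 47.5 and 59.6 CPM in Lint-O KD (log2 fold change -2.0 with SE 0.241 and edgeR adjusted p = 0.0079). For both genes Lint-1 KD was the lowest of the 3 knockdowns and still above EGFP KD. CG8745 was close to its control level in Lint-1 KD and above it in Lint-O KD. It had 1.86 and 1.89 CPM in Lint-1 KD, against 7.86 and 9.28 CPM in Lint-O KD (log2 fold change -2.19 with SE 0.286 and edgeR adjusted p = 0.00902), and 2.16 and 2.18 CPM in EGFP KD. CG7166, CR31451, CG32457 and CG1674 were also lower, with log2 fold changes of -2.81, -2.19, -1.70 and -1.55. The call of vas and that of Lint-1 (log2 fold change -2.83) held with any 1 library left out. cona lost its call without any 1 of 3 libraries (0.0657 to 0.12), and the other 5 without any 1 of the 4 (0.0788 to 0.39).

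**Figure D5:**
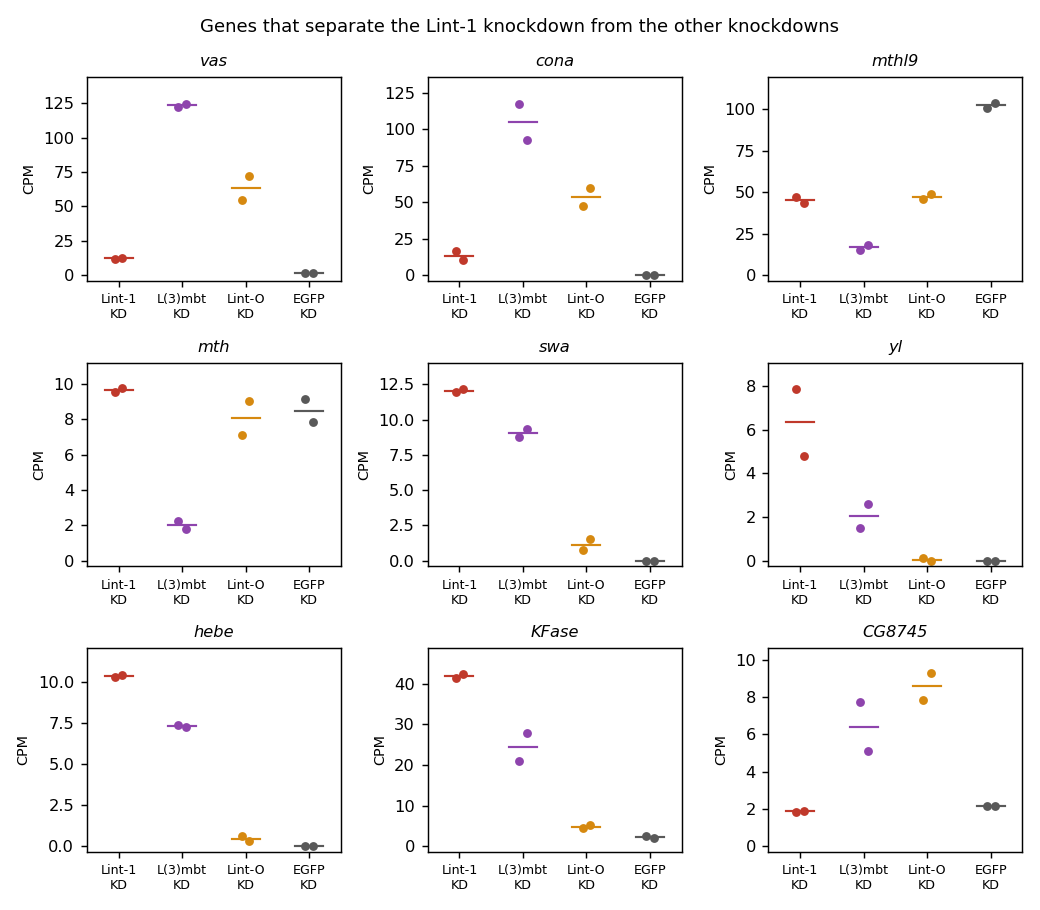
Points are single libraries and lines the mean of 2, in CPM on a linear axis per gene, for 9 genes in Lint-1 KD, L(3)mbt KD, Lint-O KD and EGFP KD from left to right. vas and cona are lower in Lint-1 KD than in the other 2 knockdowns, swa, hebe and KFase are high in Lint-1 KD and L(3)mbt KD and low in Lint-O KD, and mth is low in L(3)mbt KD.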

How the data were processed

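Polyadenylated RNA of 8 OSC samples was prepared with a stranded mRNA kit, per the labels' protocols. The authors deposited 1 table of raw read counts per gene. Per the submitters' processing notes the work names HISAT2, HTSeq, edgeR and the build dm6. How each tool was used, its version, the gene annotation and whether counting used strand are not given in the sources at hand. Genes that overlap, run antisense to each other or are near copies thus have uncertain values. Not analysed here were the 6 ChIP and input samples.

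The 5 special lines of the counter stayed out of all sizes and tests. Per library, 14.96% to 18.51% of reads fell on no gene and 1.05% to 1.13% were ambiguous. The number of columns of other samples was 0. Positions are whole-gene spans from the RefSeq table of dm6, in which 12512 symbols were current, 3996 matched a synonym and 219 had no single match (among them nos and Sas). No promoter or protein sequence was used here.

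The deposited counts were tested with edgeR 4.0.16 in R 4.3.3: filterByExpr by group, TMM factors, glmQLFit on the 8 libraries together with no term but group (leaving 4 residual degrees of freedom; biological coefficient of variation 15.43%) and glmQLFTest for 3 contrasts, with Benjamini-Hochberg adjustment over 8244 genes. On simulated counts of Lint-1 KD against EGFP KD (7762 genes), edgeR called 70 of the 100 simulated 2-fold changes, 95 of the 100 4-fold changes and 5 unchanged genes; DESeq2 1.42.0 called 79, 96 and 26.

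Genes and the 37 lists were chosen with earlier results of these data known, so no test was made over a list. Named genes were the targets, the piRNA amplification factors, the 12 largest called rises and falls whose higher group reached 5 CPM, with no overlap between groups, the 6 called genes of highest control CPM each way, and up to 4 called members of each list (in direct comparisons, the 8 largest each way). Some were left out for space. KFase and dao fall under the direct comparisons. List members named beyond that, mostly ones that did not pass, were chosen after their values were seen. Alternatives were DESeq2, its size factors, upper-quartile scaling, other low-count filters (none, or at least 1 CPM in 2 libraries and 50 counts), a fit of the 4 libraries compared, a replicate block, removal of a trend with gene span (lowess span 0.3), a 2-fold minimum and leaving out each library.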

Additional observations from a re-analysis of the deposited data

How the results depend on the processing

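No result changed direction under any alternative run. Against EGFP KD, the 693 higher genes became 525 at 2-fold or more, 553 to 834 under the other alternatives listed that kept all 4 libraries, and 414 to 445 with 1 library left out. The 103 lower genes became 191 with DESeq2, 204 with the gene-span trend removed, 277 with no low-count filter, 27 at 2-fold or more and 11 to 40 with 1 library left out. Of the 693 and 103 genes, DESeq2 kept 690 and 103. Against L(3)mbt KD, the 3 higher genes became 12 with DESeq2, 12 with no filter, 0 in the fit of 4 libraries and 0 to 3 with 1 library left out. The 3 lower genes became 43 with DESeq2, 44 with no filter, 15 with the span trend removed, 6 with upper-quartile scaling and 3 to 5 with 1 library left out. Against Lint-O KD, the 75 higher genes became 200 with DESeq2, 244 with no filter, 118 with the span trend removed, 237 in the fit of 4 libraries and 3 to 18 with 1 library left out. The 22 lower genes became 95, 146, 51 and 174 under the same alternatives and 2 to 7 with 1 library left out. The cause of these moves was not tested, apart from the fewer samples or genes that some settings hold by construction.

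Groups share only replicate numbers: deviations of same-numbered libraries correlated at -0.237 with EGFP KD, 0.356 with L(3)mbt KD and -0.184 with Lint-O KD. With the replicate block, the counts were 553 higher and 40 lower against EGFP KD, 1 higher and 3 lower against L(3)mbt KD, and 24 higher and 9 lower against Lint-O KD. A crossed replicate block, chosen after seeing the data, gave 1185 higher and 1188 lower against EGFP KD, and 980 and 1152 against Lint-O KD. Groups of 2 allowed no search for single outlying libraries.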

Other observations

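2 gene families outside the lists had calls in the lower direction alone in Lint-1 KD. Both were chosen after their values were seen and carry no test as families. Of 23 aminoacyl-tRNA synthetase genes, whose enzymes load tRNAs with amino acids, 7 were called lower and none higher, beside 1.25% of all tested genes called lower, and the median log2 fold change was -0.27, with a range of -1.03 to 0.20. Aats-glupro, the bifunctional glutamyl-prolyl enzyme, had 172 and 150 CPM in Lint-1 KD, against 318 and 340 CPM in EGFP KD (log2 fold change -1.03, SE 0.14, edgeR adjusted p = 0.00165). Aats-val had 279 and 244 CPM in Lint-1 KD, against 391.9 and 420 CPM in EGFP KD (log2 fold change -0.63, edgeR adjusted p = 0.00797). With 1 library left out, 1 to 3 of the 23 were called. Of 5 tested imaginal disc growth factor genes, which encode secreted chitinase-like proteins, 4 were lower. Idgf2 had 19.4 and 16.4 CPM in Lint-1 KD, against 31.8 and 32.8 CPM in EGFP KD (log2 fold change -0.85, edgeR adjusted p = 0.00844). With 1 library left out, 0 to 2 of the 5 were called.

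In 8 places 3 or more tested genes that follow each other along a chromosome were all called higher, beside 8.41% of all tested genes. No such run of lower genes was found, but only 1.25% of all tested genes were called lower. The absence of lower runs is therefore no result. One lay on X and held DAAM, fs(1)N and CG11409, with log2 fold changes of 0.89, 2.59 and 2.29. CG11409 had 7.72 and 6.76 CPM in Lint-1 KD, against 1.39 and 1.56 CPM in EGFP KD. Another lay on 3L and held CG10361 (Gcat), CG42255 and CG14130, with log2 fold changes of 4.22, 3.36 and 0.89. CG42255 had 13.99 and 12.9 CPM in Lint-1 KD, against 0.776 and 1.82 CPM in EGFP KD. A run of 4 on 2R held CG30273 and CG30269, which share 1 span in the gene table, so their reads cannot be told apart. How many runs an even spread of the called genes would give was not computed.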
